A study of Mus musculus with 2 samples.

Results

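Astrocytes are the star-shaped glial cells that surround synapses and small vessels, and the 43 genes described here are in common use as astrocyte markers: transporters, junction proteins, receptors, transcription factors, enzymes, secreted proteins and cytoskeletal proteins. The set was drawn up by name, with no cut on measured values but with earlier results of these data known. All 43 were found among the 32531 gene symbols of both count tables. The study profiled neurons by translating ribosome affinity purification with RNA sequencing (TRAP-seq), in which a cell type makes ribosomes with a green fluorescent tag and the RNA on those ribosomes is pulled down with an antibody. Both libraries came from the ventral striatum of adult control mice of the Stard5-EGFP/Rpl10a line JX5852, which received no treatment, and both were pulled down with monoclonal anti-EGFP on magnetic beads. The tag is EGFP on the ribosomal protein L10a, in a mouse line named for Stard5, and both libraries carry it. The 2 libraries, replicate 1 and replicate 2, form the only group, so what can be compared is the 2 libraries with each other and the genes with other genes in the same library. Input RNA and pull-downs from mice without the tag were not analysed here, so RNA from tagged ribosomes in astrocytes and RNA carried over from untagged astrocytes cannot be told apart. In bulk RNA, fewer cells of a type and less RNA per cell cannot be told apart either. Whether separate animals gave the replicates is not stated in the labels, so their spread may be technical.

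As background, astrocytes clear glutamate after synaptic release with the transporters that Slc1a2 and Slc1a3 encode, turn it into glutamine with glutamine synthetase (Glul), and couple to each other through gap junctions of the connexins Gja1 and Gjb6. Their endfeet on vessels carry the water channel Aqp4. They also store glycogen, supply lipoprotein particles built on Apoe and Clu, and secrete matrix proteins that act at synapses. In the striatum they lie among GABAergic spiny projection neurons. Many of these genes are also used by other brain cells, among them Glul and Apoe, so the 43 were also split into 19 that are mostly astrocytic in adult forebrain and 24 that other brain cells also make.

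Levels are given as CPM, reads per 1000000 reads assigned to genes, and genes with at least 1 CPM in each library are called detected. Of the 43 astrocyte genes, 39 were detected, 23 reached 10 CPM in both libraries, and 6 reached 100 CPM in both. Their summed share of the reads in genes was 0.246% in replicate 1 (exact Clopper-Pearson 95% interval 0.244% to 0.248%) and 0.608% in replicate 2 (0.605% to 0.611%), a ratio of 2.47. The share was thus larger in replicate 2. A summed share depends on how many genes are summed, so it does not show whether the astrocyte genes were scarce. Levels of single genes were set against all detected genes as reads per kilobase of exon and 1000000 reads in genes (RPKM). In replicate 1 the median of the 43 genes was 2.50 RPKM, below the 5.39 of all detected genes with a length. In replicate 2 it was 7.48 RPKM, above their 5.13. CPM was higher in replicate 2 for 40 genes and higher in replicate 1 for Cst3, Mt1 and Mt3. After TMM scaling, which sets the library sizes by the bulk of the genes, 27 of the 39 detected genes were at least 2-fold higher in replicate 2 with a Benjamini-Hochberg adjusted p below 0.05 in a 2-sided exact binomial test of their reads, and 0 were higher in replicate 1 by that rule. Of all 12374 detected genes, 9.57% were called higher in replicate 2, 7.78% higher in replicate 1, and 17.4% in either direction. The largest adjusted p among the 27 genes was 2.29e-16, and their folds ran from 2.04 to 10.3. The median log2 ratio of replicate 2 over replicate 1 was 1.46 over the 39 genes, a fold of 2.75, and -0.00239 over all detected genes. A ratio of that size or more was met by 4.20% of all detected genes.

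That test takes in counting error only and compares 2 libraries, not conditions. An edgeR exact test took the spread between libraries from these same libraries (common dispersion, biological coefficient of variation 0.355). That spread holds the difference under test, so few genes can pass and a count of 0 cannot decide whether genes differ. By it, 0 of the 39 genes and 0 of all detected genes passed. In the same test 19 astrocyte genes lay at an unadjusted p below 0.05, all higher in replicate 2, beside 6.09% of all genes.

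**Figure D1:**
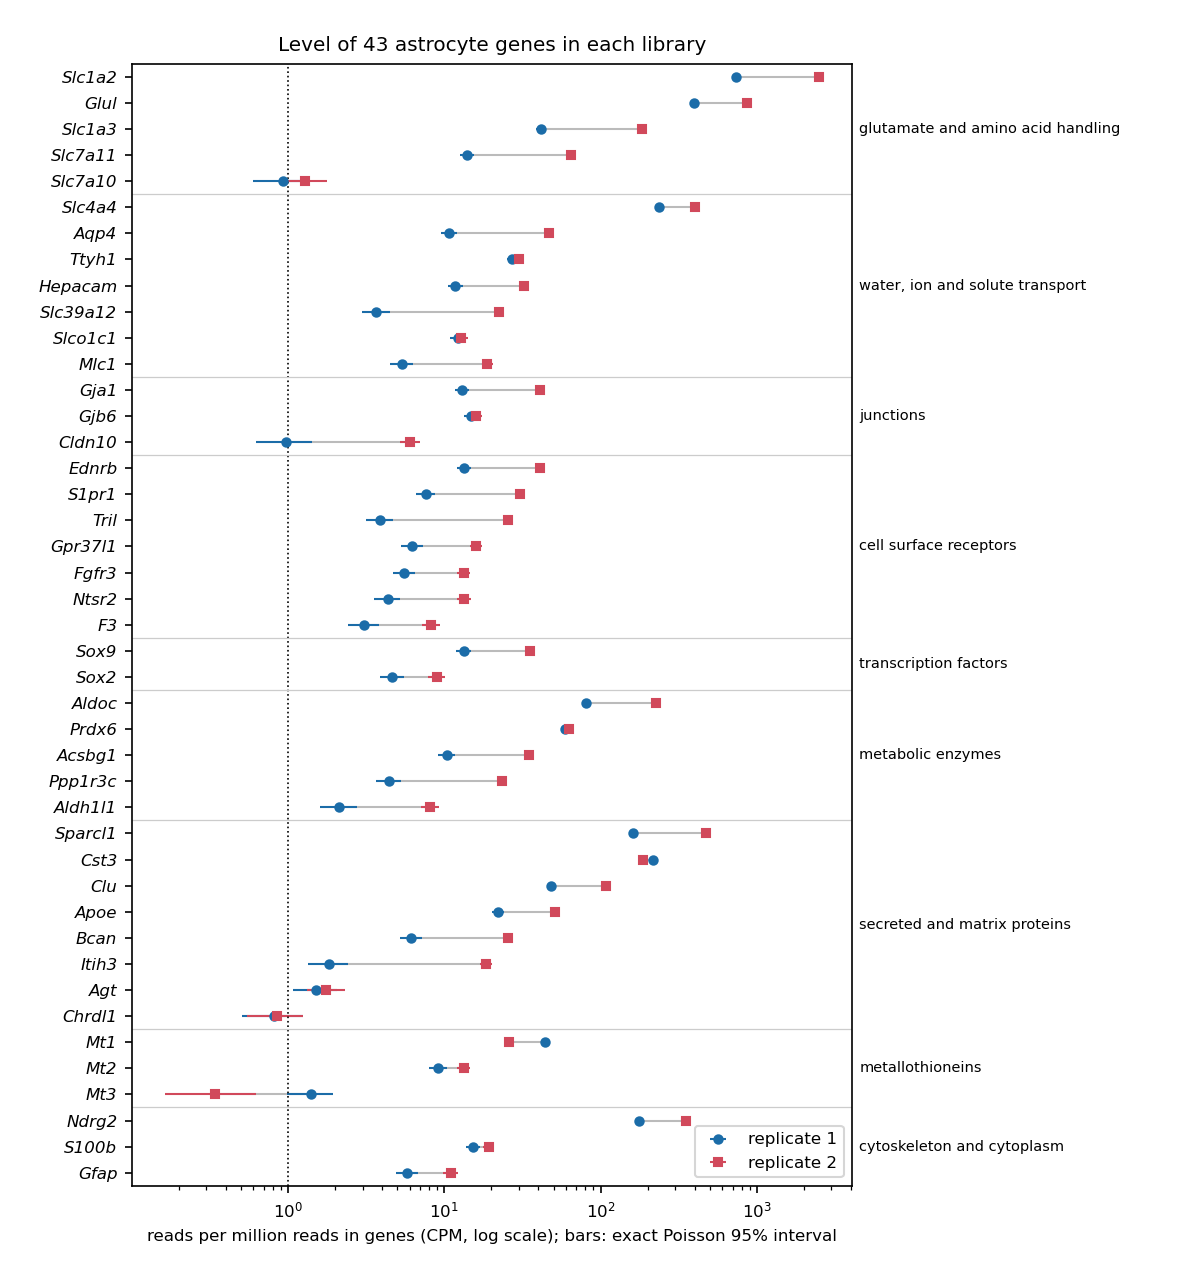
Level of each of the 43 astrocyte genes in replicate 1 (circles) and replicate 2 (squares), in CPM on a log axis, with exact Poisson 95% intervals as bars and the detection limit of 1 CPM as a dotted line. The genes are grouped by role, and the square lies to the right of the circle for 40 of 43.

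The libraries held 25830282 and 29574781 reads in genes and differed in more than the astrocyte genes. Reads outside annotated exons were 22.8% and 31.0% of all counted reads, and reads with more than 1 alignment 27.9% and 13.6%. Stard5 itself, which names the line, was at 166 and 54.9 CPM in replicates 1 and 2 and was called higher in replicate 1 (log2 ratio -1.57); Rpl10a was at 99.5 and 57.5 CPM. Over all detected genes, 9.57% were called higher in replicate 2 and 7.78% higher in replicate 1. Of 9 nuclear and long noncoding RNAs, 6 were called higher in replicate 2, with a summed level of 4157 and 10932 CPM. Of 14 detected immediate early genes, 5 were called higher in replicate 1, with a summed level of 1049 and 552 CPM. The part of these differences in the ratios of the astrocyte genes was not tested.

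In this and the following groups by role, counts of called genes stand beside 9.57% of all detected genes called higher in replicate 2 and 7.78% higher in replicate 1. Among the genes of glutamate and amino acid handling, all 4 detected genes were called higher in replicate 2, and they held the most abundant astrocyte RNAs by CPM. Slc1a2, the main glutamate transporter of forebrain astrocytes, was at 741 and 2496 CPM in replicates 1 and 2 (mean 1619 ± 1241, SD, n = 2), and its log2 ratio was 1.78 (95% interval 1.76 to 1.80). The gene (ENSMUSG00000005089.15) lies on the plus strand of chromosome 2 at 102658659 to 102790784 in GRCm38, with 13133 exon bases. Slc1a2 alone made up 30.1% of the reads of the 43 genes in replicate 1 and 41.1% in replicate 2, and without it the others went from 0.172% to 0.358% of reads in genes. Glul, which makes glutamine from glutamate, was at 397 and 869.9 CPM and was 2.23-fold higher in replicate 2; it lies on the plus strand of chromosome 1 at 153899944 to 153909723. Slc1a3, the second astrocytic glutamate transporter, was at 41.3 and 184 CPM, a fold of 4.54. Slc7a11, the cystine-glutamate exchanger that feeds glutathione synthesis, was at 13.98 and 65.2 CPM, a fold of 4.75. Replicate 2 was the higher library for each of these 4 genes. Slc7a10, a transporter of small neutral amino acids, was at 0.929 and 1.28 CPM, from 24 and 38 reads, and fell just outside the detection limit in replicate 1.

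Slc1a2 outweighed Slc1a3 in both libraries, by less in replicate 2. Slc1a2 took 94.7% of the reads of Slc1a2 and Slc1a3 in replicate 1 and 93.1% in replicate 2. Per kilobase of exon (RPKM), its level was 11.7 times that of Slc1a3 in replicate 1 and 8.80 times in replicate 2. Slc1a1, the transporter that neurons use, was at 83.2 and 106 CPM and was not called, and its share of the reads of all 3 transporters was 9.61% and 3.79%.

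Of 7 genes of water, ion and solute transport, 4 were called higher in replicate 2 and the other 3 were closer to equal. Aqp4, the endfoot water channel, was at 10.7 and 46.9 CPM in replicates 1 and 2 (log2 ratio 2.16, interval 1.97 to 2.35). Slc39a12, a zinc importer, was at 3.68 and 22.4 CPM, a fold of 6.21. Mlc1, a membrane protein of the endfeet, and Hepacam, the adhesion protein that brings it to cell contacts, were 3.596-fold and 2.81-fold higher in replicate 2, at 5.34 and 18.9 CPM and 11.8 and 32.5 CPM. These 4 genes thus ran from a 2.81-fold to a 6.21-fold difference. Slc4a4, the sodium bicarbonate cotransporter that takes part in pH control, was the most abundant of the 7 at 237 and 402 CPM, and its log2 ratio of 0.79 stayed below the 2-fold requirement. Ttyh1, an anion channel family member, was at 27.02 and 29.9 CPM, and Slco1c1, a thyroid hormone transporter also found in vessel cells, was at 12.2 and 12.8 CPM. The log2 ratio of Slco1c1 had an interval of -0.12 to 0.32, which holds 0 and ends below 1.

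The gap junction genes differed in their ratios. Gja1, connexin 43, was at 12.97 and 40.98 CPM in replicates 1 and 2 and was called higher in replicate 2 (log2 ratio 1.69, interval 1.51 to 1.86). Gjb6, connexin 30, was at 14.8 and 15.99 CPM and was not called (log2 ratio 0.14, interval -0.05 to 0.34). The intervals of the 2 ratios did not overlap, but they cover counting error only, and log2 ratios over all detected genes had a SD of 0.78. Gja1 made up 46.8% of the reads of the pair in replicate 1 (43.1% to 50.5%) and 71.9% in replicate 2 (69.7% to 74.1%). Per kilobase, however, Gjb6 stood above Gja1 in both libraries, with Gja1 at 0.229 and 0.668 times its level. The union of exons has 10257 bases for Gja1 and 2674 for Gjb6. In replicate 2, where Gja1 had more reads, the order per kilobase therefore depends on the lengths used. Cldn10, a tight junction claudin, was at 0.968 and 6.02 CPM, from 25 and 178 reads. It lay just under the detection limit in replicate 1 and so was not among the detected genes tested. Its log2 ratio was 2.66 (interval 2.05 to 3.33).

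All 7 cell surface receptors were called higher in replicate 2, beside 9.57% of all detected genes. In replicate 1, 6 of the 7 stayed below 10 CPM. Ednrb, the endothelin B receptor, was the most abundant at 13.4 and 40.9 CPM in replicates 1 and 2, a fold of 3.11. S1pr1, a receptor for the lipid sphingosine 1-phosphate, was at 7.63 and 30.5 CPM, a fold of 4.07. Tril, a partner of Toll-like receptors, was at 3.87 and 25.5 CPM, and its log2 ratio of 2.74 was the second highest of the detected astrocyte genes. The remaining 4 had folds between 2.45 and 3.14. These were Gpr37l1, an orphan receptor of glia at 6.23 and 15.99 CPM, Fgfr3, a fibroblast growth factor receptor at 5.54 and 13.3 CPM, Ntsr2, a neurotensin receptor at 4.34 and 13.4 CPM, and F3, tissue factor, at 3.06 and 8.25 CPM. F3 rested on 79 and 244 reads, and the interval of its log2 ratio ran from 1.09 to 1.84. Of the exon bases of Tril, 21.4% are shared with Gm16499, and of those of Fgfr3, 13.9% with G630022F23Rik, and no source used here states the strand setting of the counts.

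Of the 2 transcription factors, Sox9, which astrocytes keep in adulthood, was at 13.3 and 35.4 CPM in replicates 1 and 2 and was called 2.71-fold higher in replicate 2. Sox2, a factor of neural stem cells and glia, was at 4.65 and 8.96 CPM, and its log2 ratio of 0.97 (interval 0.66 to 1.30) fell just short of the 2-fold requirement. Sox9 held 74.1% and 79.8% of the reads of the pair.

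Of 5 metabolic enzyme genes, 4 were called higher in replicate 2. Aldoc, the brain form of the glycolytic enzyme aldolase, was the most abundant at 80.8 and 225 CPM in replicates 1 and 2 (a fold of 2.84, log2 interval 1.43 to 1.58). Ppp1r3c, a scaffold that activates glycogen synthesis, was at 4.41 and 23.5 CPM, a fold of 5.42. Acsbg1, which activates long-chain fatty acids, was at 10.3 and 34.9 CPM. Aldh1l1, a folate enzyme much used as a general astrocyte marker, was at 2.13 and 8.12 CPM, from 55 and 240 reads, a fold of 3.88 (log2 interval 1.53 to 2.41). The low level of Aldh1l1 puts it at the 13.8 percentile of detected genes per kilobase. Prdx6, a peroxidase that many cell types make, was at 58.9 and 62.8 CPM, and its log2 ratio of 0.12 had an interval of 0.02 to 0.22.

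Among 8 genes for secreted and matrix proteins, 5 were called higher in replicate 2, and the group held the largest ratio of the set. Itih3, a heavy chain that binds the matrix polymer hyaluronan, was at 1.82 and 18.5 CPM in replicates 1 and 2, from 47 and 547 reads. Its log2 ratio of 3.37 (interval 2.94 to 3.83) was reached by 7 of the 12374 detected genes, Itih3 included. The gene lies on the minus strand of chromosome 14 at 30908572 to 30923760. Sparcl1, also called hevin, which promotes synapse formation, was at 162 and 474 CPM, a fold of 2.98. Bcan, the proteoglycan brevican of the perineuronal matrix, was at 6.12 and 25.6 CPM, a fold of 4.26. The lipoprotein genes Clu and Apoe, at 48.4 and 108 CPM and 22.1 and 51.4 CPM, had folds of 2.28 and 2.37, close to each other. Cst3, the protease inhibitor cystatin C, which microglia and neurons also make, was at 218 and 186 CPM with a log2 ratio of -0.20 (interval -0.26 to -0.15). Agt, angiotensinogen, was at 1.51 and 1.76 CPM, just inside the detection limit, and its interval of -0.38 to 0.88 holds 0. Chrdl1, an antagonist of bone morphogenetic proteins that matures synapses, was at 0.813 and 0.845 CPM, from 21 and 25 reads, just outside it in both libraries.

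Metallothioneins are small cysteine-rich proteins that bind zinc and copper. The coding sequences of the 3 genes are shown here because they are paralogs, so that reads may be shared between them. The sequences are from GENCODE M21 on GRCm38, all on the plus strand of chromosome 8, 5′ to 3′ from start to stop codon, with capitals for bases that differ from Mt1 or have no partner in it. The coding exons of Mt1 lie within 94179311 to 94180193, those of Mt2 within 94172848 to 94173427, and those of Mt3 within 94152800 to 94154010.
Mt1: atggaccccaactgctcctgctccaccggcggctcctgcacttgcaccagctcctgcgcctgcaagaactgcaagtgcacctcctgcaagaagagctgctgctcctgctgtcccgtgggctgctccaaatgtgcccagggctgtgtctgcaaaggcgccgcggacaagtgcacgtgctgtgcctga
Mt2: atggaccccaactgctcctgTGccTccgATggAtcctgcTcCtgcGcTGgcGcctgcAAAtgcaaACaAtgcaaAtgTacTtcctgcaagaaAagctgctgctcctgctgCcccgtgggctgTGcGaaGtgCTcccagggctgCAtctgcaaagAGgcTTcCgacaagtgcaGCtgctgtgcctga
Mt3: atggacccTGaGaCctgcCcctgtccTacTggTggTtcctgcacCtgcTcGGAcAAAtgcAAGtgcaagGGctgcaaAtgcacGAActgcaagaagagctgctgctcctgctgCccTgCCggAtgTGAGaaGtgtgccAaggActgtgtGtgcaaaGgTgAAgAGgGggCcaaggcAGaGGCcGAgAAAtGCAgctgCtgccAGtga
Mt1 and Mt2 are identical at 148 of 186 positions (79.6%), with 20 bases as the longest identical run, and Mt1 and Mt3 at 144 of 209 aligned positions (68.9%), with a run of 27.

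Of the metallothionein genes, 0 of the 2 detected were called. Mt1 was at 44.3 and 25.8 CPM in replicates 1 and 2, and its log2 ratio of -0.75 (interval -0.89 to -0.62) was below 0. Mt2, its neighbour on the chromosome, was at 9.14 and 13.3 CPM with a log2 ratio of 0.57 (interval 0.33 to 0.81), so the pair lay on opposite sides of 0. Mt1 took 82.9% of the reads of the pair in replicate 1 (80.8% to 84.8%) and 66.0% in replicate 2 (63.2% to 68.7%). Mt3, the form of neurons and glia, was at 1.39 and 0.338 CPM, from 36 and 10 reads. It was under the limit in replicate 2 and so was not among the detected genes tested. Gm45774 covers 73.5% of the exon bases of Mt2, so that without a stated strand setting reads of Mt2 and Gm45774 cannot be told apart.

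The genes of cytoskeleton and cytoplasm held classical stains for astrocytes, and 1 of the 3 was called. Ndrg2, a cytoplasmic protein of astrocytes, was at 175 and 352 CPM in replicates 1 and 2 and was called with a fold of 2.04, the smallest of the 27. Gfap, the intermediate filament protein used as the classical stain for astrocytes, was at only 5.77 and 11.02 CPM, from 149 and 326 reads, with a log2 ratio of 0.96 (interval 0.68 to 1.25). S100b, a calcium-binding protein of astrocytes and some oligodendrocyte lineage cells, was at 15.2 and 19.3 CPM with a log2 ratio of 0.37. Both stayed below the 2-fold requirement.

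**Figure D2:**
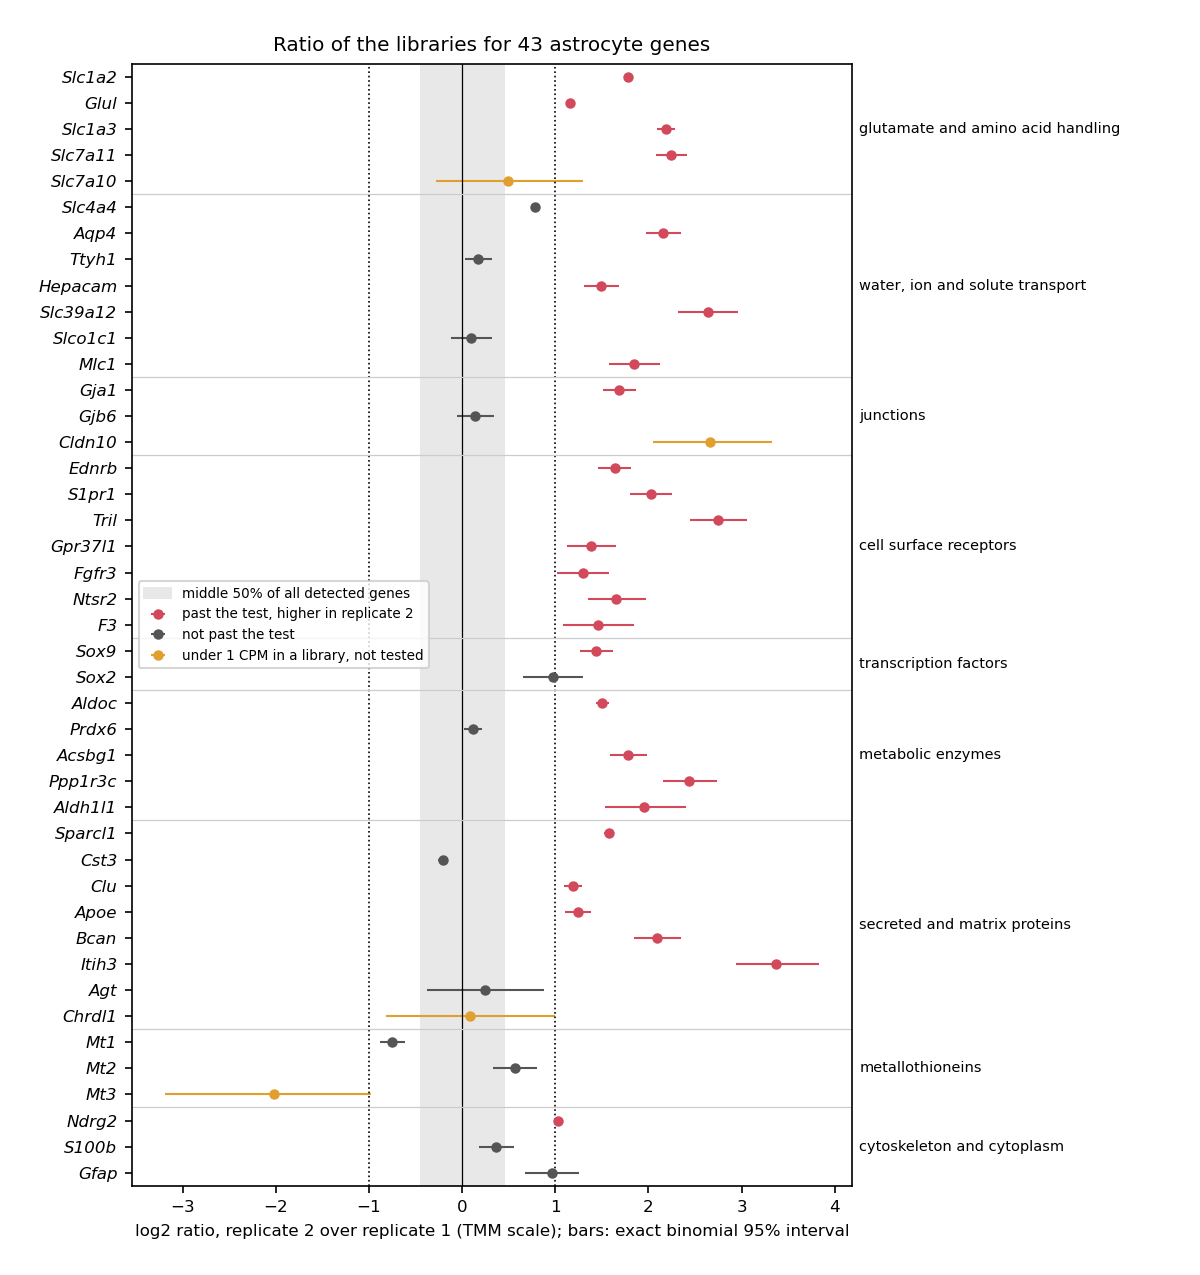
Log2 ratio of replicate 2 over replicate 1 on the TMM scale for the 43 astrocyte genes, with exact binomial 95% intervals as bars. The grey band holds the middle 50% of all detected genes, from -0.44 to 0.45, and dotted lines mark a 2-fold ratio. The 27 genes past the test lie to the right of the upper line, and Mt1, Cst3 and Mt3 lie left of 0.

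The astrocyte genes varied more among themselves than counting error gives. Their log2 ratios had a SD of 0.88 over the 39 detected genes and 0.78 over all detected genes, where counting alone gives 0.101 at the read counts of the median gene. Without the 2-fold requirement, 34 of the 39 passed with replicate 2 higher and 2 with replicate 1 higher, beside 39.1% and 39.8% of all detected genes. The 17 detected genes that are mostly astrocytic in adult forebrain included 14 called higher in replicate 2, and their median log2 ratio was 1.78. The 22 detected genes that other brain cells also make had a median of 1.17, and 13 were called. The difference between these 2 classes was not tested. The 3 detected, mostly astrocytic genes that were not called were Gfap, Gjb6 and Agt.

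Levels of different genes were compared per kilobase of exon. In mean RPKM, the order began with Glul at 191 ± 101 (SD, n = 2), Cst3 at 159.7 ± 17.9, Slc1a2 at 123 ± 94.5, Sparcl1 at 108 ± 75.2 and Ndrg2 at 77.6 ± 36.8. Aldoc at 46.9 ± 31.3, Slc4a4 at 29.6 ± 10.8 and Mt1 at 28.1 ± 10.5 came next, followed by Clu, Mt2, Apoe and Slc1a3 between 22.8 and 13.2. Glutamine synthetase thus stood above the glutamate transporter per kilobase, although Slc1a2 had more reads. Cst3 was above Glul and Slc1a2 in replicate 1 and below both in replicate 2, at 172 and 147 RPKM. S100b came after them at 11.6 ± 1.93, and lower in the order were Aqp4 at 4.63 ± 4.11, Gja1 at 2.63 ± 1.93, Gfap at 1.99 ± 0.881 and Aldh1l1 at 1.13 ± 0.937. The last places were held by Agt, Mt3, Slc7a10 and Chrdl1, the last at 0.123 ± 0.00338. Of the 42 neighbouring pairs in the order, 12 kept their order in both libraries. In 41 the gap was smaller than the larger SD of log2 RPKM of the pair over the libraries. Only between Slc7a10 and Chrdl1 was the gap larger. That SD takes in the rise in replicate 2 that most of these genes share, so it does not measure how neighbours differ within a library. Across the 43 genes, log2 RPKM of the libraries had a Spearman rho of 0.90 and a Pearson r of 0.91, and over 11465 detected genes with a length rho was 0.94; these are descriptions across genes of the same 2 libraries, and genes are not independent replicates.

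Proportions within a library do not depend on its scaling. Aqp4 stood at 0.355 times Slc1a3 per kilobase in replicate 1 and 0.348 times in replicate 2, nearly the same. By contrast, Mt1 stood at 2.29 times Mt2 in replicate 1 and 0.916 times in replicate 2, and Clu at 8.18 and 4.18 times Aqp4. The union of exons of Mt1 (1246 bases, beside 588 for Mt2) takes in its whole gene, so the order of the pair in replicate 2 depends on the lengths used. Mt1 held 82.9% and 66.0% of the reads of the pair in replicates 1 and 2. The 5 genes with the most reads, Slc1a2, Glul, Slc4a4, Sparcl1 and Ndrg2, held 69.6% of the reads of the 43 genes in replicate 1 and 75.6% in replicate 2. Set against a neuronal gene, Slc1a2 stood at 0.122 times Gad2, which makes GABA in spiny projection neurons, in replicate 1 and at 0.350 times in replicate 2.

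Exon length moved with the ratio between the libraries over all genes. In 20 bins of detected genes by exon length, the median log2 ratio ran from -0.64 in the shortest genes (73 to 1510 bases) to 0.33 in the longest (13247 bases and more). Of the 6 astrocyte genes with exons under 2000 bases, which are Cst3, Mt1, Mt2, Mt3, S100b and Agt, 5 were detected and 0 were called; their median log2 ratio was 0.25, beside -0.49 for all genes of that length, of which 5.89% were called higher in replicate 2 and 22.0% higher in replicate 1. Of the 37 longer astrocyte genes, 34 were detected and 27 were called higher in replicate 2, with a median of 1.54 where all genes of that length had 0.03 and 9.34% were called. With the length trend of all genes taken off, 31 of the 39 detected genes passed as higher in replicate 2, beside 9.41% of all genes, Gfap, Sox2, Mt2 and S100b being added, and Cst3 changed sign to 0.44.

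**Figure D3:**
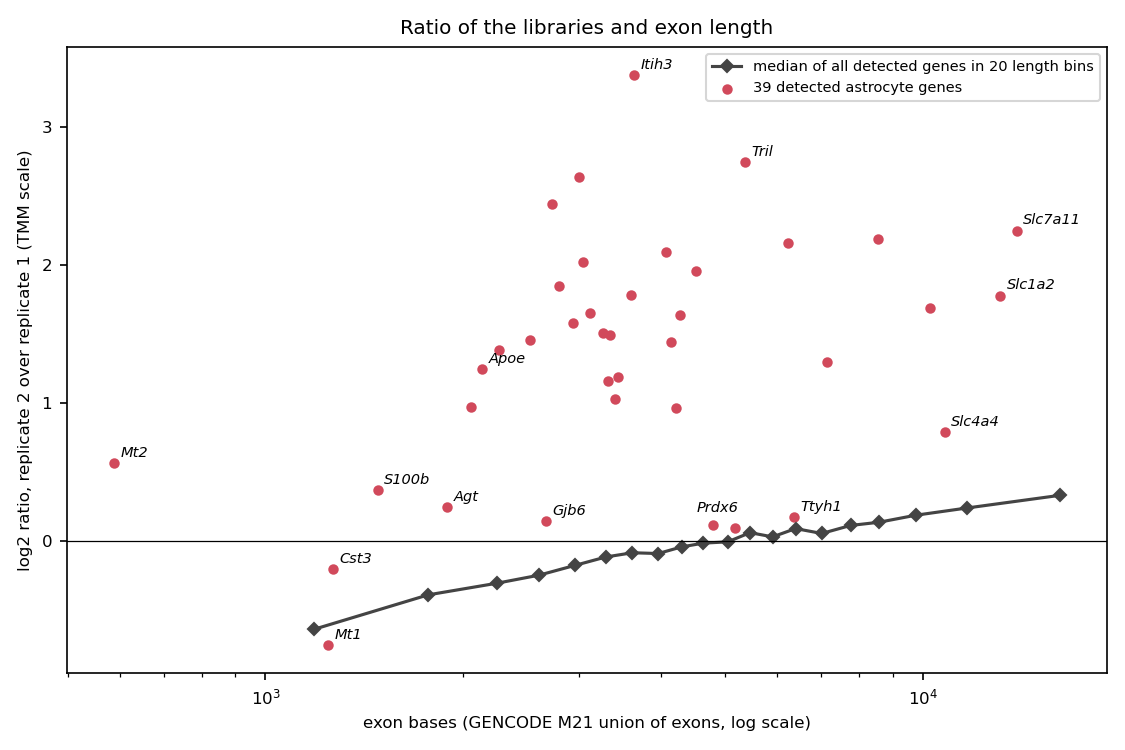
Log2 ratio of replicate 2 over replicate 1 (TMM scale) against exon bases on a log axis, for the 39 detected astrocyte genes (circles) and as the median of all detected genes with a length in 20 length bins (diamonds joined by a line). Mt1 lies just under the line, and Itih3 is highest at 3.37.

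Against other cell types, the median astrocyte gene was far below the median neuronal marker in both libraries, and less so in replicate 2. The median over the 43 genes of log2(RPKM + 1) differed from that of 19 markers of spiny projection neurons by -4.27 in replicate 1 and by -2.63 in replicate 2 (mean difference -3.45 ± 1.16, SD, n = 2). The markers are mainly abundant genes: 18 of the 19 reached 100 CPM in both libraries, beside 6 of the 43 astrocyte genes. The marker median was 66.6 and 51.6 RPKM in replicates 1 and 2. Glul, at 120 and 262 RPKM, and Cst3, at 172 and 147 RPKM, were above the marker median in both libraries. Gad2, Arpp21, Gnal and Pde10a, the most abundant of those markers, were at 2727 and 3192, 3037 and 2063, 2681 and 2283, and 1973 and 1877 CPM in replicates 1 and 2, and 0 of the 19 were called in either direction. The summed level of the 19 spiny neuron markers was 16752 and 14652 CPM, and that of the 43 astrocyte genes 2462 and 6080.2 CPM. These sums depend on the number and length of the genes, so each is compared only between the libraries. The neuronal sum was lower in replicate 2 and the astrocyte sum higher. Of 14 genes of all neurons, again 0 were called (median log2 ratio -0.24), where 17.4% of all detected genes were called in either direction.

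Genes of other glia and vessels did not all move with the astrocyte genes. Of all detected genes, 9.57% were called higher in replicate 2 and 7.78% higher in replicate 1. The single calls among oligodendrocyte precursor genes (14.3%, higher in replicate 2) and microglial genes (9.09%, higher in replicate 1) lay near those shares. Of 11 detected oligodendrocyte genes, 5 were called higher in replicate 2 (median log2 ratio 0.75), and the summed level of the whole list was 971 and 1508 CPM. The 5 were Cnp, an enzyme gene of myelin at 116 and 247 CPM in replicates 1 and 2, Cldn11, Aspa, Ugt8a and Opalin, while the myelin genes Mbp and Mobp were not called. Gjb1, at 2.79 and 0.642 CPM (log2 ratio -2.09), was under 1 CPM in replicate 2 and was not among the detected genes. With no filter on low levels, 5 oligodendrocyte genes were called higher in replicate 2 and 1, Gjb1, higher in replicate 1. Of 7 detected genes of oligodendrocyte precursors, 1, the growth factor receptor gene Pdgfra, was called higher in replicate 2, and the median was 0.81. Of 11 detected microglial genes, 0 were called higher in replicate 2 and 1 higher in replicate 1, the complement gene C1qb, with a median of -0.42 and a summed level of 222 and 167 CPM. Of 8 detected genes of endothelial and mural cells, 0 were called higher in replicate 2 and 2 higher in replicate 1, Pecam1 and Kdr, with a median of -0.10 and a summed level of 76.8 and 91.8 CPM. Pdgfrb, a pericyte gene at 0.968 and 10.1 CPM, and Cldn5, an endothelial gene at 0.155 and 1.18 CPM, were under 1 CPM in replicate 1. They were thus not among the detected genes tested. With no filter on low levels, 3 endothelial and mural genes were called higher in replicate 2 and 2 higher in replicate 1. Of all genes tested that way, 20.3% and 10.3% were. Of 10 choroid plexus and ependymal markers, Ttr, Folr1, Ccdc153, Tmem212 and Aqp1 had 0 reads in both libraries. In the same list Enpp2 at 101 and 181 CPM and Kl at 12.7 and 20.5 CPM were detected and not called, Dynlrb2 was at 3.95 and 0.947 CPM, and the summed level was 118 and 204 CPM. The summed level of the microglial genes was thus lower in replicate 2, while that of the astrocyte genes was higher. Per kilobase, the median astrocyte gene stood below the median microglial gene in replicate 1 (-0.96 in log2(RPKM + 1)) and above it in replicate 2 (0.51). The part of other glia in the ratios of genes that several cell types make was not tested.

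**Figure D4:**
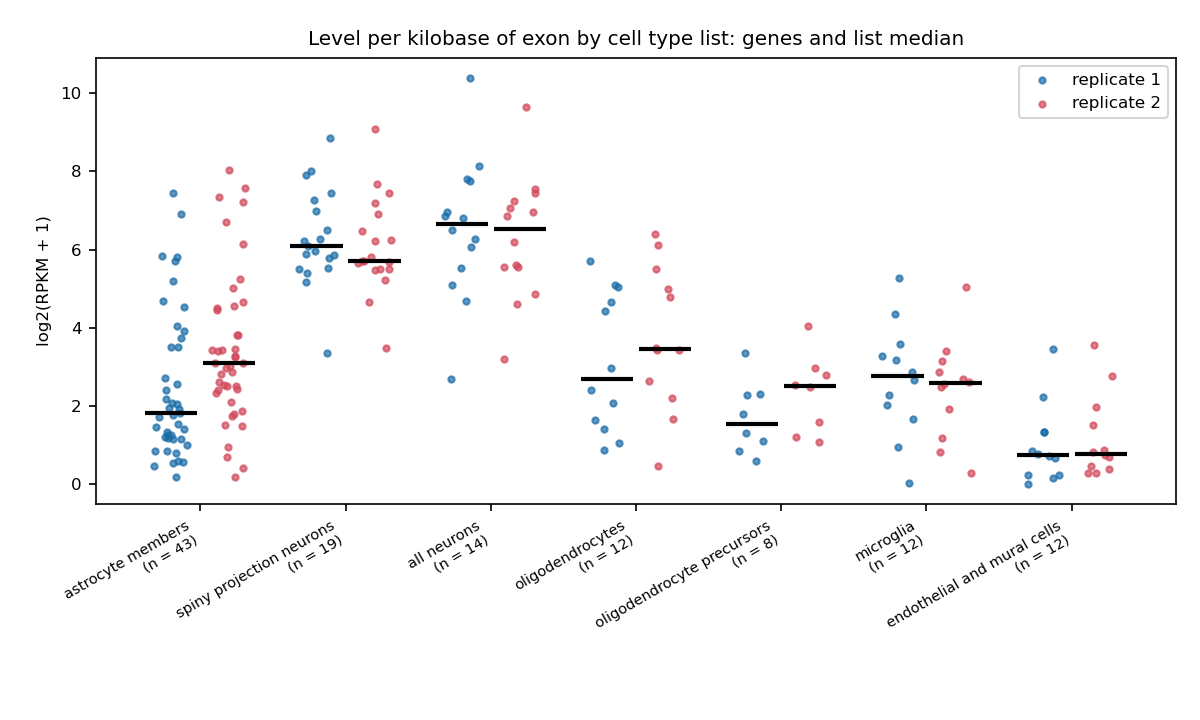
Level per kilobase of exon, as log2(RPKM + 1), of the genes of each cell type list in replicate 1 and replicate 2, with bars at the list medians. The median of the 43 astrocyte genes lies below both neuronal lists in both libraries, by 4.27 and 2.63 for spiny projection neurons.

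**Figure D5:**
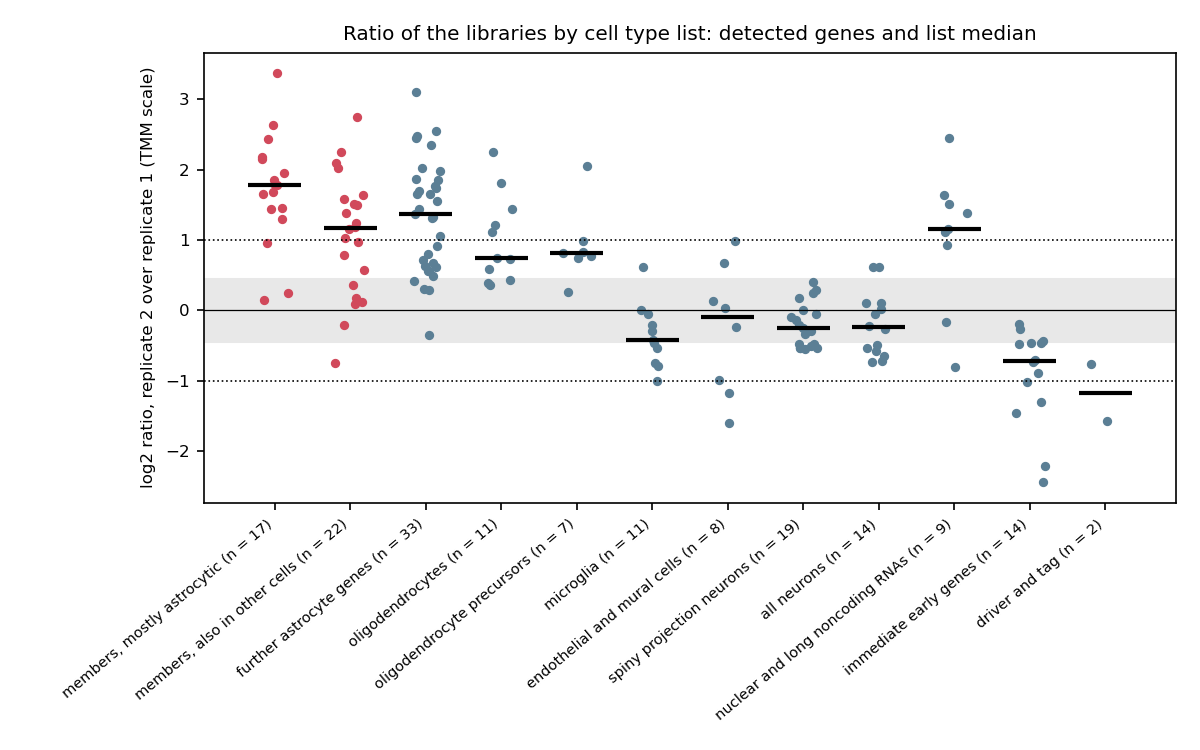
Log2 ratio of replicate 2 over replicate 1 (TMM scale) of the detected genes of each list, with bars at the list medians, a grey band for the middle 50% of all detected genes and dotted lines at a 2-fold ratio. The medians are 1.78 and 1.17 for the 2 classes of astrocyte genes, -0.25 for spiny projection neurons and -0.42 for microglia.

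Astrocyte genes outside the 43 were called in the same direction. Of 43 further astrocyte genes found, 33 were detected, with a median log2 ratio of 1.38. Of these, 20 (60.6%) were called higher in replicate 2 and 0 higher in replicate 1, beside 9.57% and 7.78% of all detected genes. This list, too, was chosen with earlier results of these data known. Among the most abundant were Gpm6b, a membrane protein also of neurons, at 285 and 432 CPM in replicates 1 and 2, Atp1b2, an adhesion protein of glia, at 109.8 and 166 CPM, and Fam107a at 36.5 and 119.6 CPM. Fam107a was called, and Gpm6b and Atp1b2 were not. The largest ratios past the test were those of Axl, a receptor used to take up dying cells, with a log2 ratio of 3.10, Htra1, a secreted protease, with 2.55, and Slc25a18, a mitochondrial glutamate carrier, with 2.47. Kcnj10, the potassium channel Kir4.1 that buffers potassium, was at 29.8 and 92.1 CPM and was called; this gene is outside the naming rule and was chosen after its values were seen.

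Calls in the pathways around these genes were mixed. They stand beside 9.57% of all detected genes called higher in replicate 2 and 7.78% called higher in replicate 1. Of 12 detected genes of glutamate and GABA clearance outside the 43, 2 were called higher in replicate 2 and 0 higher in replicate 1 (median log2 ratio 0.42). These were the astrocytic glutamine exporter Slc38a3 at 1.74 and 12.3 CPM in replicates 1 and 2 and the astrocytic GABA transporter Slc6a11 at 33.4 and 81.05 CPM. The enzymes Got1 and Glud1, at 592 and 555 CPM and 365 and 542 CPM, were not called. Of 4 detected connexins and pannexins, Gja1 was called higher in replicate 2 and Panx1, a large-pore channel, at 17.7 and 5.27 CPM, higher in replicate 1, and Gjc3 at 48.7 and 63.7 CPM was not called. Of 16 detected glial transcription factors, Sox9 and Sox2 included, 8 were called higher in replicate 2 and 0 higher in replicate 1, with a median of 1.03. Rorb had the largest ratio among them (2.07), Nfib and Nfix were at 33.4 and 81.6 CPM and 25.5 and 54.1 CPM and were called, and Zbtb20 and Nfia, at 248 and 278 CPM and 38.7 and 72.4 CPM, were not.

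Metabolic genes that passed the test were mainly higher in replicate 2, where 9.57% of all detected genes were called higher in replicate 2 and 7.78% higher in replicate 1. Of 14 detected genes of glycogen, glucose and lactate, 7 were called higher in replicate 2 and 0 higher in replicate 1 (median log2 ratio 1.02). They included Ppp1r3c, Pygb, a glycogen phosphorylase, at 61.4 and 141 CPM in replicates 1 and 2, Phka1, a subunit of the kinase that activates it, with the largest ratio (3.29), and Pdk4, which holds back pyruvate oxidation (1.94). The lactate dehydrogenase genes Ldhb and Ldha, at 748 and 641 CPM and 268 and 303 CPM, and the neuronal glucose transporter gene Slc2a3 at 94.97 and 129 CPM were not called. Of 13 detected lipid genes, with Apoe and Acsbg1 among them, 6 were called higher in replicate 2 and 1 higher in replicate 1. Fabp7, a fatty acid carrier of glia, had a log2 ratio of 1.77, and Cpt1a, which brings fatty acids into mitochondria, 1.62. Fabp5, a related carrier also of neurons, was at 51.4 and 22.6 CPM and was the gene called higher in replicate 1. Lrp1, a receptor for Apoe particles, was at 209 and 410.1 CPM, just under a 2-fold ratio, and Acsl3 and Abcg1 were not called.

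Ligands and partners of the receptors were called at about the share of all genes. Of 13 detected, 1 was called higher in each direction, 7.69% each beside 9.57% and 7.78% of all detected genes (median log2 ratio 0.23). Psap, whose product prosaposin is a proposed ligand of Gpr37l1, was at 258 and 254 CPM in replicates 1 and 2, and Sort1, a sorting receptor that binds neurotensin, at 289 and 311 CPM. Gpr37, the close relative of Gpr37l1, was called higher in replicate 2 (6.43 and 16.8 CPM), and Fgf9, a ligand of Fgfr3, higher in replicate 1 (54.7 and 20.6 CPM). Of 8 detected genes for matrix and synapse-organising secreted proteins, Sparcl1, Bcan and Hapln1, a link protein of the perineuronal matrix at 2.83 and 9.37 CPM, were called higher in replicate 2. The lectican Ncan at 244 and 373 CPM, Sparc at 83.9 and 147 CPM and Tnr at 56.9 and 85.04 CPM were not called.

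Most genes that rise in reactive astrocytes after injury were low, with list medians of 0.581 and 0.981 CPM in replicates 1 and 2. Of 29 such genes, Gfap included, 11 were detected. That count does not set the list apart, since 12374 of all 32531 gene symbols were detected. Among the others, 3 were under 1 CPM in replicate 1 alone, 3 in replicate 2 alone and 12 in both. C4b and S1pr3, both under 1 CPM in replicate 1, reached 13.2 and 5.48 CPM in replicate 2. The median log2 ratio of the 11 detected genes was 0.15. In each direction 2 were called, 18.2% each beside 9.57% (higher in replicate 2) and 7.78% (higher in replicate 1) of all detected genes. With no filter on low levels, 8 were called higher in replicate 2 and 4 higher in replicate 1, beside 20.3% and 10.3% of all genes tested that way. Lcn2, Steap4, Cxcl10, Aspg and Ptx3 had 0 reads in both libraries, a count that allows levels up to 0.116 CPM and 0.101 CPM in the 2 libraries (3 reads). Vim, an intermediate filament gene, at 2.83 and 5.98 CPM, and Psmb8, a proteasome subunit gene, at 1.16 and 3.35 CPM, were called higher in replicate 2. Srgn at 3.52 and 1.35 CPM and Emp1 at 2.98 and 1.18 CPM were called higher in replicate 1. Stat3, the most abundant of the list at 45.7 and 59.4 CPM, was not called.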

How the data were processed

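RNA from ribosome pull-downs was sequenced in 2 libraries of 1 group. The authors deposited raw read counts for each gene symbol. STAR 2.0.0e (an aligner), HTSeq (a counter) and build mm10 are named in the submitters' processing notes. Annotation, strand setting and read filters were not given in the sources used here. In each table, 6 lines named no gene and were left out; they held reads outside exons (22.8% and 31.0%), ambiguous reads (1.84% and 2.08%) and reads with more than 1 alignment (27.9% and 13.6%).

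CPM was computed over 25830282 and 29574781 reads in named genes, so 1 CPM is 25.8 and 29.6 reads. RPKM used the union of exons in GENCODE M21 on GRCm38 (the same build as mm10), matched by symbol. All 43 astrocyte genes and 11465 of 12374 detected genes (92.7%) had a length. A union can be longer than the transcripts present, so levels of different genes per kilobase depend on it. Library sizes were scaled by TMM (trimmed mean of M-values, edgeR 4.0.16, R 4.3.3) over detected genes. A model with replicates per group could not compare the libraries, since there is 1 group. Reads of each detected gene were therefore compared by a 2-sided exact binomial test (scipy 1.17.1), adjusted over all 12374 genes, with a call at adjusted p below 0.05 and a ratio of 2 or more. The script was tested on simulated data. Intervals are 95% and cover counting error only, as does the floor of 3 reads for a count of 0. List medians are descriptions without a test.

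The members and lists were chosen with earlier results of these data known. All 43 genes are named; of other lists, up to 4 genes with the highest mean CPM and, for lists tied to astrocytes, up to 3 called genes with the largest ratio in each direction, with Stard5 and Rpl10a. Other names are marked or belong to a count of 5 or fewer; some genes this rule would name are not reported here. Alternatives covered total counts, DESeq2 1.42.0 size factors, filters, exon length and GC trends, edgeR's exact test, pseudocounts and single libraries. Protein sequences and promoter windows were not used here.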

Additional observations from a re-analysis of the deposited data

How the results depend on the processing

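The count of 27 astrocyte genes called higher in replicate 2 was 27 with total counts (beside 9.20% of all genes), DESeq2 size factors (9.58%) or a minimum mean of 5 CPM (7.67%), 28 with no filter (20.3%), 29 with the GC trend removed (9.03%), 31 with the length trend removed (9.41%) and 34 with no ratio required (39.1%). It was 0 with edgeR's exact test, whose spread holds the difference under test. In that test the smallest adjusted p of an astrocyte gene was 0.0776, for Itih3. The count called higher in replicate 1 was 0 in the main test, 1 with no filter (Mt3) and 2 with no ratio required (Cst3 and Mt1). Over all genes, 17.4% were called in the main test, 30.6% (5796 of 18929) with no filter, 78.9% (9761 genes) with no ratio required and 0 by edgeR's exact test. The median log2 ratio of the astrocyte genes stayed between 1.43 and 1.55 under the scalings, filters and trends run. Cst3 changed sign to 0.44 with the length trend removed, and Slco1c1 to -0.0102 with the GC trend removed. Their median level of 17.2 CPM was 4.90 in RPKM, which is another unit, and ran from 10.7 to 25.6 CPM with a single library. Their difference from spiny neuron markers ran from -4.27 to -2.63 with a single library and was -4.59 in CPM. No paired analysis was possible because there is only 1 group. Depth limits the genes with few reads: Mt3 had 10 reads in replicate 2 and Chrdl1 21 in replicate 1, and a count of 0 reads still allows 3.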

Other observations

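Several astrocyte genes outside the 43 were nearly silent in replicate 1 and clearly present in replicate 2. They were left out of the main test, because they were under 1 CPM in a library, and they were chosen after their values were seen. Etnppl, a phospholyase of astrocytes, was at 0.968 and 30.2 CPM in replicates 1 and 2, Kcnj16, the partner of the potassium channel Kir4.1, at 0.232 and 10.6 CPM, Slc15a2, a peptide transporter, at 0.232 and 5.75 CPM, and Grin2c, an NMDA receptor subunit that astrocytes make, at 0.116 and 3.55 CPM. C4b, a complement gene of the reactive astrocyte list, was at 0.581 and 13.2 CPM. S1pr3, a relative of S1pr1 that is also in the reactive list, had 0 reads in replicate 1 and 162 in replicate 2. Ntsr1, the neuronal relative of Ntsr2, had 0 and 77 reads. Of the 43 further astrocyte genes, 8 were under 1 CPM in replicate 1 alone and 0 in replicate 2 alone, and with no filter on low levels 30 were called higher in replicate 2 and 0 higher in replicate 1, beside 20.3% and 10.3% of the 18929 genes tested that way. A few genes went the other way: Gli1, a target of Sonic hedgehog signalling, was at 3.87 and 0.203 CPM, and Tlr4, the receptor that Tril serves, at 5.15 and 0.7101 CPM. Both were left out of the main test for the same reason.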
